A study of Mus musculus with 20 samples.

Results

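The nuclear genes for the subunits of respiratory complexes I to V were followed through livers of 20 male mice. Gene symbols of the Nduf, Sdh, Uqcr, Cox and Atp5 families were taken by name, which gave 92 genes. Of these, 6 pseudogenes marked as such in the symbol were removed, and 7 of the other 86 were left out because their mean over all libraries was below 1 CPM (read counts brought to the same library size). The remaining 79 genes, out of 46078 in the table of counts, comprise 38 named for complex I, 4 for complex II, 8 for complex III, 11 for complex IV and 17 for complex V. The last one, Cox6a2, is the heart and muscle form of a complex IV subunit and is described apart from the other 78. Just inside the cut were Cox6a2 and Ndufa4l2, and just outside were Cox7a1 and Cox6b2. All 79 passed the filter on low counts. The names cover some genes that are no subunit in the strict sense: Ndufs6b is annotated as a processed pseudogene, Cox6c2 has no protein-coding transcript, Ndufa4 is placed in complex IV by more recent work, and Cox7a2l and Atp5s are accessory factors.

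The livers came from 6 groups of mice, all fed calorie-restricted (CR) amino-acid-defined diets, at least 9 weeks old at the start, and sampled on day 2 after the diet shift. Cse (gene symbol Cth) is the gene of cystathionine γ-lyase, the last enzyme of cysteine synthesis from methionine, and Cse-/- mice (129/C57BL/6 background) depend on cysteine from the diet. Cse+/- mice, which the sample labels call WT, received the control diet (n = 2), a diet lacking cysteine (no-Cys, n = 4) or a diet lacking tryptophan (no-Trp, n = 3). Cse-/- mice received the diet lacking cysteine (n = 4), that lacking tryptophan (n = 3) or the latter with L-buthionine sulfoximine, BSO, an inhibitor of glutathione synthesis (n = 4). Cse-/- livers on the control diet are not analysed here. Cth itself stood at 88.3 to 332 CPM in Cse+/- livers and at 6.37 to 14.4 CPM in Cse-/- livers. Counts on genes ranged from 11785740 to 57986121 per library. Hepatocyte markers were abundant in every library. Their summed level was lower in Cse-/- no-Cys livers (51820 to 81530 CPM) than in Cse+/- no-Cys livers (96580 to 121700 CPM). It was 79220 to 87320 CPM in Cse-/- no-Trp livers. Of the 8, 4 were called lower and 1 higher between the genotypes on the no-Cys diet, from -1.26 to 0.58 in log2 fold change. Stellate and fibroblast markers had 2 of 6 called lower there, bile duct markers 1 of 4 lower and endothelial markers 1 of 5 higher. Among all genes, 12.2% were called lower and 11.6% higher. Summed erythroid markers were at 69.0 to 114 CPM in Cse-/- no-Cys and at 201 to 405 CPM in Cse+/- no-Cys livers. All 5 of these erythroid genes were called lower between the genotypes on the no-Cys diet, and 3 were called lower in Cse-/- no-Cys than in Cse-/- no-Trp livers. Of 6 fat markers, Lep was at 0 in every library, and the summed level was at most 2.04 CPM except in 1 liver of each no-Trp group, av17 (Cse+/-) at 31.0 CPM and av14 (Cse-/-) at 18.7 CPM. In Cse-/- no-Cys livers it was 0.059 to 0.62 CPM, and 1 of the 5 fat markers tested, Ucp1, was called lower there than in Cse-/- no-Trp livers. The part of these in the results was not tested. In whole tissue, fewer cells of a type and less RNA per cell cannot be told apart.

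The respiratory chain of the inner mitochondrial membrane passes electrons from NADH (complex I) and succinate (complex II) through complex III to oxygen at complex IV, and complex V uses the resulting proton gradient to make ATP. Apart from complex II, each complex combines subunits of the mitochondrial genome with a larger number made from nuclear genes and imported. The catalytic cores are old and long, whereas most of the accessory subunits are short proteins of a single membrane span or less. Hepatocytes are rich in mitochondria and use them for fat oxidation, urea synthesis and gluconeogenesis.

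Promoters of 62 of the 79 genes were at hand from RefSeq (GRCm38.p6; 250 bases before to 50 after the start, 67 windows). The 3 motifs searched are known from nuclear respiratory genes, both strands were read, and no match to one overlapped a match to another in these windows. The NRF1-type motif, GCGCA and GCGC parted by any 1 base, was found in 26.9% of the 67 windows and in 4.60% of all 32851 promoter windows. The ETS-type motif CCGGAAG was found in 23.9% against 8.86%, and the YY1-type motif AAGATGGC in 13.4% against 2.75%. Sdhd, the only subunit gene that passed the threshold in 3 comparisons below, holds both an NRF1-type and an ETS-type motif in its 300-base window, the latter 46 bases before its start. Its upstream stretch up to the first exon of the neighbouring gene, chr9:50603850-50603909 on the minus strand (GRCm38.p6, RefSeq), reads as follows, with the motif in capitals.
Sdhd: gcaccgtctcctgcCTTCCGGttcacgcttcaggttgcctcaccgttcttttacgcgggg

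Per kilobase of the principal transcript, the subunit genes spanned a wide range of levels within each complex. In complex I the mean over the 20 libraries ran from 1.64 CPM per kb for Ndufa4l2 to 825 CPM per kb for Ndufa4, with a median of 116 CPM per kb. Complex II was tightest, from 71.7 CPM per kb for the membrane anchor Sdhc to 227 CPM per kb for the iron-sulfur subunit Sdhb. Complex III ran from 129 CPM per kb for the core protein Uqcrc2 to 1051 CPM per kb for the small subunit Uqcrq, complex IV from 78.5 CPM per kb for Cox6c2 to 679 CPM per kb for Cox6a1, and complex V from 5.29 CPM per kb for Atp5s to 782 CPM per kb for Atp5g3, which encodes the c subunit of the membrane ring. These are levels, not differences. Of the 79, 34 share no 61-base word with another gene's transcripts. For 7 genes (Cox6c2, Atp5o, Atp5g2, Ndufb6, Ndufa13, Uqcrb and Cox7c), more than 20% of the words are shared with other genes, and their counts are uncertain to that extent. For Ndufa13, Ndufb6 and Atp5o, more than 20% of the exon sequence also overlaps a gene on the other strand, and the kit does not mark strand.

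The level of short transcripts varied among libraries of 1 group. Among genes of at least 30 CPM, the 172 with a principal transcript of up to 700 bases were set against the 2766 longer than 2000 bases, subunit genes left out of both. The difference of their medians on the log2 scale, each gene centred on its own mean, was 0.18 in mouse av04 and between -0.18 and -0.071 in the other 3 Cse+/- no-Cys livers. It was 0.27 in mouse av14 and between -0.14 and -0.12 in the other 2 Cse-/- no-Trp livers, and it was highest of all in mouse av20 of the Cse+/- no-Trp group, at 0.37. The medians of the subunit genes were 0.24 in av04 and 0.26 in av14, 0.17 in av20, and 0.22 in the control liver av22, where the difference by length was 0.13. Counts of called genes are also given without av04 and av14, a choice made after seeing the data. The comparisons that use av20 had 0 calls among the 78 both with and without it, so these counts cannot show its effect.

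Loss of Cse on the no-Cys diet came with lower levels of 18 of the 78 subunit transcripts and higher levels of 2 (edgeR quasi-likelihood test, adjusted p under 0.05). Among all 14759 genes tested, 12.2% were called lower and 11.6% higher. The members called lower included Cox6c and Ndufa1, which stood lowest at -0.61 ± 0.12 and -0.61 ± 0.14 (log2 fold change ± SE), and 1 or more of each complex: 7 of 38 in complex I, 1 of 4 in complex II, 3 of 8 in complex III, 2 of 11 in complex IV and 5 of 17 in complex V. The median log2 fold change was -0.16 over the 78 subunit genes and -0.0093 over all genes tested; with scaling by total counts alone, the median of all genes moved to 0.15 and that of the subunit genes to 0.0054, so the sign of the latter flipped. Under that scaling 2 subunit transcripts were called lower and 5 higher. Without av04 and av14 the median of the subunit genes was -0.061. Of the 78 differences, 65 were below 0, against 51.2% of all genes. In 24 of the 78, every Cse-/- value lay below every Cse+/- value, against 11.2% of all genes tested. In 3, every Cse-/- value lay above, against 12% of all genes. Such separation, here and for single genes below, is that of TMM-scaled CPM and was not counted with total counts. TMM factors were 1.01 to 1.12 in these Cse-/- livers and 0.94 to 1.00 in the Cse+/- livers. With total counts, the Cse-/- values therefore stand higher against the Cse+/- values. The count called lower was 4 without av04, 4 without av05, 8 without av07 and 12 without av06, and 8 without both av04 and av14. Without av04, the 5 genes called in either direction were Cox6c, Cox7a2l, Cox7c, Ndufa1 and Sdhd, and without av05 these and Atp5s were called. Without av06 none was called higher. The 58 genes not called ran from -0.51 to 0.23, with the former for Cox6c2 and the latter for Ndufs1.

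**Figure D1:**
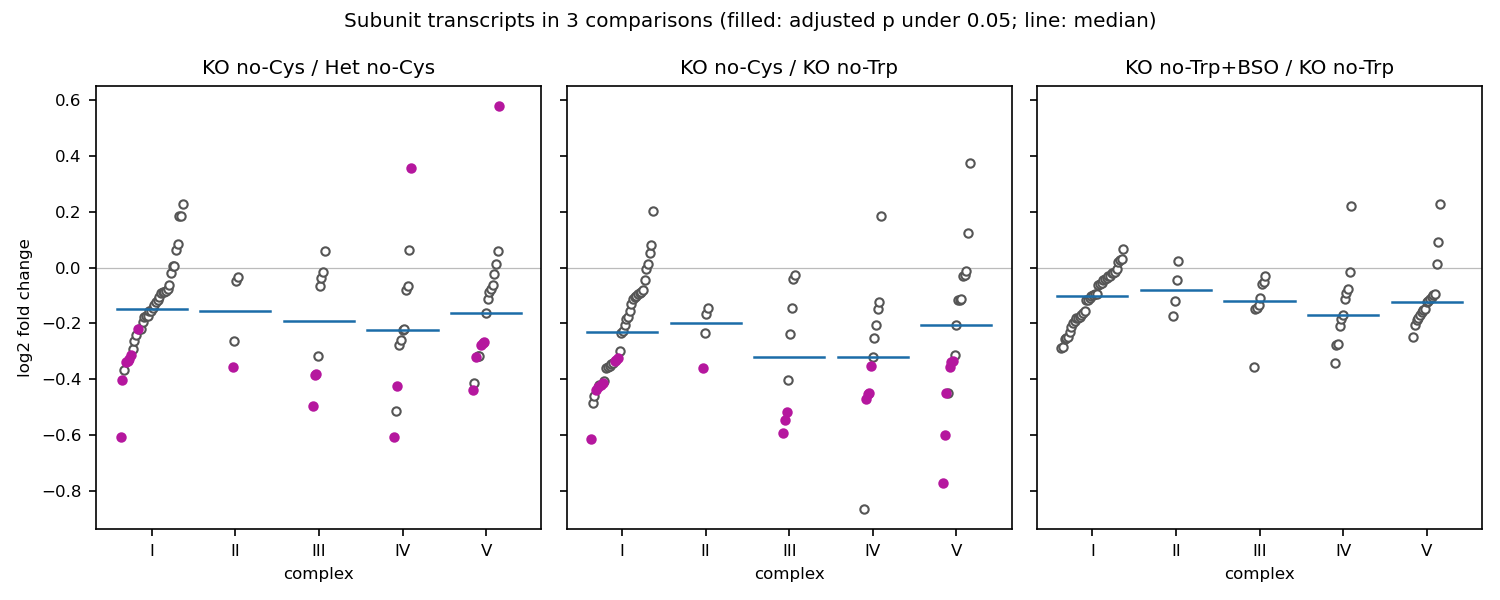
Log2 fold change (vertical axis) of each of the 78 subunit genes, by complex (horizontal axis), in 3 comparisons; filled points have an adjusted p under 0.05 and lines are medians. In Cse-/- against Cse+/- livers on the no-Cys diet 18 points are filled below 0 and 2 above, in no-Cys against no-Trp Cse-/- livers 22 are filled, all below 0, and with BSO none is; scaled by total counts, the first of these comparisons has a median of 0.0054 in place of -0.16.

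In complex I, the 7 core subunits, which carry the flavin and the iron-sulfur clusters, and the 28 accessory subunits were counted apart. None of the 7 core transcripts was called, with a median log2 fold change of -0.077. Of the 28 accessory transcripts, 6 were called lower. With total counts, 3 core transcripts (Ndufs1, Ndufs7 and Ndufv1) were called higher (median 0.089) and 1 accessory transcript lower (median 0.016). DESeq2 called 1 core transcript lower and 1 higher. The median transcript length was 1623 bases for core and 693.5 bases for accessory genes, so role and length cannot be told apart. The difference between roles was not tested. Ndufa1, a small membrane-anchored accessory subunit encoded on the X chromosome, measured 53.3, 61.8, 67.8 and 65.9 CPM in the 4 Cse-/- no-Cys livers and 82.2, 75.6, 92.9 and 129 CPM in the 4 Cse+/- no-Cys livers (log2 fold change -0.61 ± 0.14 (SE), adjusted p = 0.0033). The groups did not overlap, and the highest Cse+/- value was that of av04. Ndufv3, a peripheral-arm subunit, measured 70.2, 67.8, 75.9 and 76.7 CPM against 83.0, 81.4, 95.5 and 124 CPM (log2 fold change -0.40 ± 0.12 (SE), adjusted p = 0.018). Ndufb11, a membrane-arm subunit, measured 153, 171, 161 and 166 CPM against 194, 185, 192 and 238 CPM (log2 fold change -0.31 ± 0.096 (SE), adjusted p = 0.022). In both, all 4 Cse-/- livers were below all 4 Cse+/- livers. The others called lower were Ndufa13, Ndufs6 and Ndufa9, and Ndufa4, now counted with complex IV, which went from 352, 334, 342 and 449.6 CPM to 273, 298, 296 and 304 CPM (log2 fold change -0.34 ± 0.11 (SE), adjusted p = 0.026). Its relative Ndufa4l2, known as a hypoxia-induced gene, lay between 0.68 and 2.91 CPM over all libraries and was not called (adjusted p = 0.45). Ndufs1, the largest core subunit, had the highest value of the complex, with 116, 128, 120.4 and 114 CPM in Cse-/- and 101, 99.5, 103 and 104 CPM in Cse+/- livers, groups that did not overlap (log2 fold change 0.23 ± 0.088 (SE), adjusted p = 0.064).

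Complex II, which is encoded entirely in the nucleus, had 1 transcript called lower of 4. Sdhd, a membrane anchor, stood at 160.0, 181, 179 and 159.5 CPM in Cse-/- no-Cys livers and at 209.9, 207, 211 and 241 CPM in Cse+/- no-Cys livers (log2 fold change -0.35 ± 0.082 (SE), adjusted p = 0.0039). All 4 Cse-/- values lay below the other group, also without av04. The other anchor, Sdhc, measured 196, 219, 204 and 233 CPM against 212, 213, 213 and 243 CPM (log2 fold change -0.049 ± 0.080 (SE), adjusted p = 0.69). The flavoprotein Sdha measured 446, 393, 404 and 522 CPM against 528, 505, 562 and 525 CPM, where av08 lay among the Cse+/- values and the other 3 below them (log2 fold change -0.26 ± 0.096 (SE), adjusted p = 0.053). For Sdhb the groups overlapped, with 244, 234, 245 and 259 CPM against 251, 235, 244 and 277 CPM (log2 fold change -0.035 ± 0.077 (SE), adjusted p = 0.78).

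In complex III the calls fell on the small subunits. Their median transcript length was 445 bases, against 1653 bases for the core and Rieske genes. With total counts, none of the 8 complex III genes was called. The 2 core proteins Uqcrc1 and Uqcrc2 and the Rieske iron-sulfur protein Uqcrfs1 had log2 fold changes between -0.067 and -0.015, and none was called. Of the 5 small subunits, 3 were called lower. Uqcr11 measured 129.6, 149, 146 and 162 CPM in Cse-/- no-Cys livers and 169, 184, 201 and 273 CPM in Cse+/- no-Cys livers (log2 fold change -0.50 ± 0.14 (SE), adjusted p = 0.012). Uqcrh, the hinge protein by cytochrome c1, measured 130.2, 144, 148 and 141 CPM against 174, 168, 171 and 222 CPM (log2 fold change -0.39 ± 0.11 (SE), adjusted p = 0.019), and Uqcrq measured 295, 343, 345 and 334 CPM against 389, 377, 407 and 542 CPM (log2 fold change -0.38 ± 0.13 (SE), adjusted p = 0.037). In these 3 genes the groups did not overlap. Uqcrb had a log2 fold change of -0.32 and adjusted p = 0.060. Uqcr10 had the highest value of the complex, at 0.061, and its groups overlapped (adjusted p = 0.80).

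In complex IV, Cox6c had the smallest adjusted p of all 78 genes. It measured 145, 171, 154 and 206 CPM in Cse-/- no-Cys livers and 246, 239, 257 and 288 CPM in Cse+/- no-Cys livers, with av08 the nearest to the other group (log2 fold change -0.61 ± 0.12 (SE), adjusted p = 0.0013). Cox7c, a small membrane subunit, measured 91.7, 91.0, 87.6 and 102 CPM against 121, 108, 134 and 136 CPM (log2 fold change -0.42 ± 0.11 (SE), adjusted p = 0.0063). Neither group of values overlapped the other. Cox7a2l, which helps complexes III and IV to associate in supercomplexes, went the other way: it measured 115, 114, 113 and 93.8 CPM against 84.6, 90.4, 75.6 and 90.4 CPM (log2 fold change 0.36 ± 0.11 (SE), adjusted p = 0.020). As log2 fold change with adjusted p in parentheses, the liver isoform Cox6a1 had -0.22 (0.099), Cox8a -0.26 (0.067), Cox6b1 -0.079 (0.70) and Cox7a2 0.064 (0.70). Their striated-muscle or testis relatives Cox7a1, Cox8b and Cox6b2 were among the 7 genes under 1 CPM. Cox6c2, which shares 49.7% of its words with Cox6c, measured 9.49, 12.9, 13.2 and 8.77 CPM against 11.3, 9.38, 12.0 and 30.3 CPM, its highest value being that of av04, and was not called (adjusted p = 0.23).

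In complex V, 5 of 17 transcripts were called lower, and none of the 5 of the F1 head and central stalk (Atp5a1, Atp5b, Atp5c1, Atp5d, Atp5e) was among them. Of the 8 genes of the peripheral stalk and the membrane subunits, 4 were called lower. The median transcript length was 612 bases for these 8 and 1166 bases for the F1 genes. With total counts, no complex V transcript was called lower. Atp5mpl, a small proteolipid of the membrane part, measured 64.9, 77.1, 80.1 and 74.5 CPM in Cse-/- no-Cys livers and 85.5, 87.7, 97.0 and 132 CPM in Cse+/- no-Cys livers (log2 fold change -0.44 ± 0.14 (SE), adjusted p = 0.027). Atp5l, the g subunit, measured 63.2, 67.5, 63.7 and 66.2 CPM against 71.7, 72.9, 83.1 and 97.6 CPM (log2 fold change -0.32 ± 0.097 (SE), adjusted p = 0.021). Atp5j, coupling factor 6, measured 164, 175, 171 and 186 CPM against 189.6, 205, 211 and 237 CPM (log2 fold change -0.28 ± 0.088 (SE), adjusted p = 0.027). All 3 were separate between the groups. Atp5h, the d subunit of the stalk, was also called. The c subunit of the rotating ring is made from 3 genes, whose mature proteins are the same. Of these, Atp5g3 was called lower, with 451, 497, 487 and 469.6 CPM against 555, 530.3, 534 and 676 CPM (log2 fold change -0.27 ± 0.091 (SE), adjusted p = 0.039). Atp5g1 had a log2 fold change of -0.16 (adjusted p = 0.22) and Atp5g2 of -0.061 (adjusted p = 0.66). Atp5s, a factor of low level, was called higher, with 8.61, 11.1, 10.0 and 10.8 CPM against 8.91, 6.27, 7.61 and 4.45 CPM and overlapping groups (log2 fold change 0.58 ± 0.19 (SE), adjusted p = 0.035). Read by promoter motif, 6 of the 16 subunit genes with the ETS-type motif were called lower, 4 of the 17 with the NRF1-type motif, 3 of the 9 with the YY1-type motif, and 6 of the 26 with none of these. These counts are a description of windows, and no difference between them was tested.

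**Figure D2:**
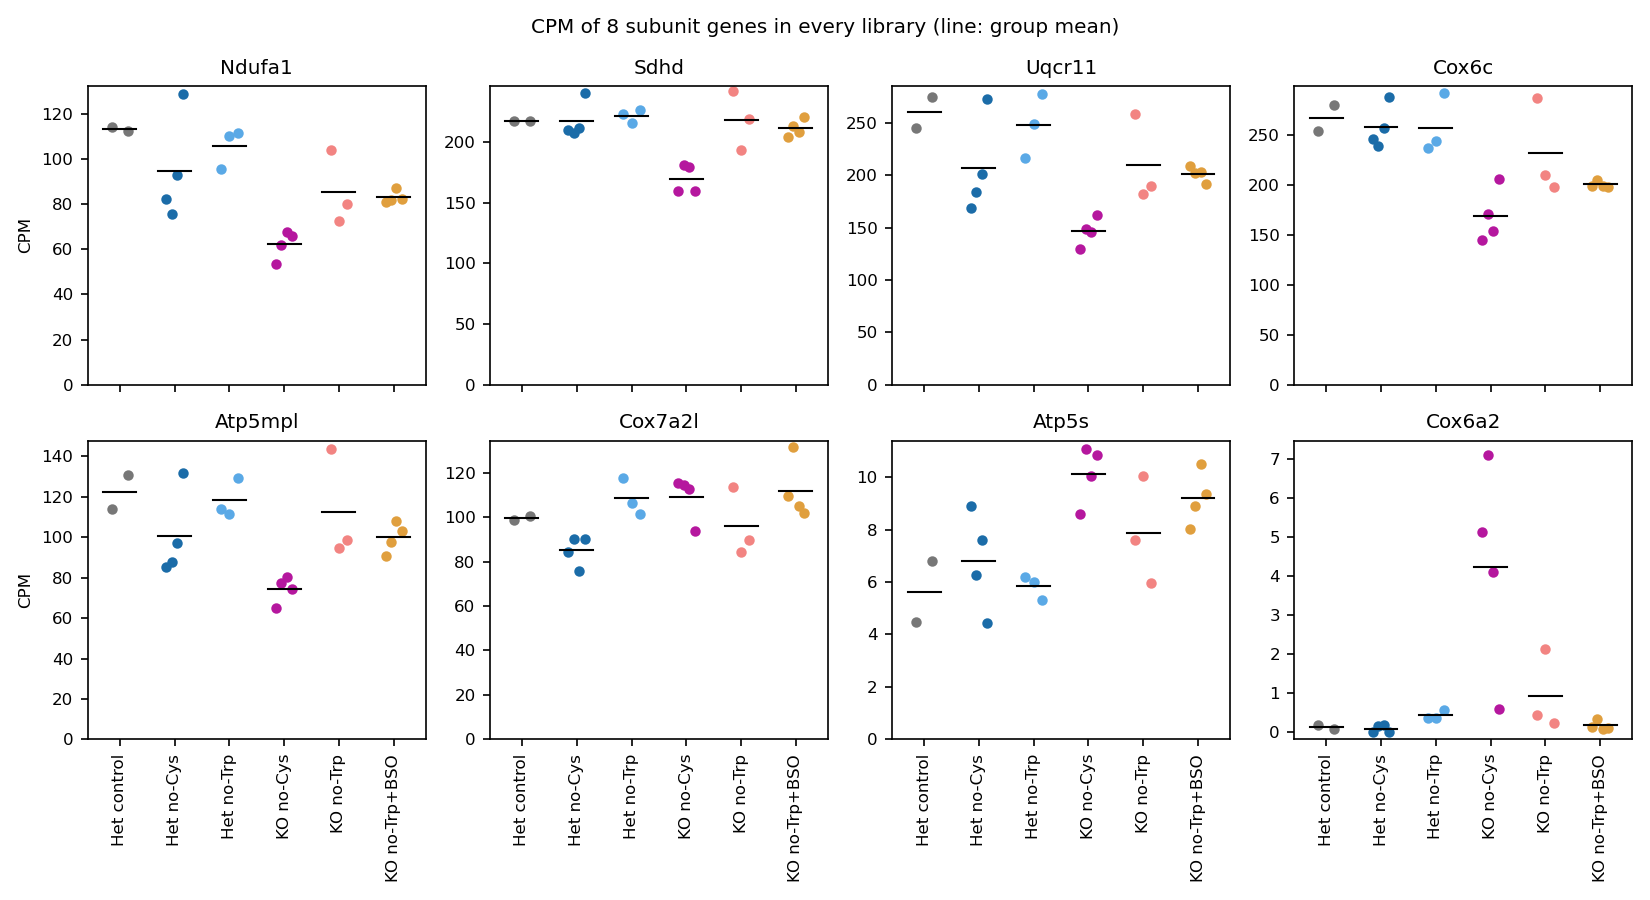
TMM-scaled CPM (vertical axes) of 8 subunit genes in every library, by group (horizontal axis), with lines at the group means. For Ndufa1, Sdhd, Uqcr11, Cox6c and Atp5mpl the Cse-/- no-Cys livers lie below all Cse+/- no-Cys livers; Cox7a2l and Atp5s are higher on average, and Cox6a2 is above 4 CPM in 3 Cse-/- no-Cys livers only.

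Cse-/- livers on the no-Cys diet were next set against Cse-/- livers on the no-Trp diet, which asks within 1 genotype whether lack of cysteine differs from lack of another amino acid. Of the 78 transcripts, 22 were called lower and none higher; among all genes 5.35% were called lower and 5.07% higher. By complex, 8 of 38, 1 of 4, 3 of 8, 4 of 11 and 6 of 17 were called in complexes I to V, and the medians were -0.23, -0.20, -0.32, -0.32 and -0.21; without av04 and av14 they were -0.14, -0.23, -0.17, -0.19 and -0.17. The median of the 78 was -0.24 (all genes, -0.0081), and -0.16 with total counts, where 8 transcripts were called lower (1, 0, 3, 2 and 2 in complexes I to V). All 28 accessory subunits of complex I had values below 0, and 7 of them were called, among them Ndufa3 (log2 fold change -0.61 ± 0.19 (SE), adjusted p = 0.041). Uqcrb measured 79.4, 86.1, 92.5 and 82.9 CPM on the no-Cys diet and 154, 118 and 113 CPM on the no-Trp diet (log2 fold change -0.59 ± 0.13 (SE), adjusted p = 0.0068), and Uqcrh 130.2, 144, 148 and 141 CPM against 257, 173 and 185 CPM (log2 fold change -0.55 ± 0.12 (SE), adjusted p = 0.0083). In both genes the groups were separate, with av14 the highest. Cox7c (log2 fold change -0.47 ± 0.11 (SE), adjusted p = 0.012), Sdhd (log2 fold change -0.36 ± 0.088 (SE), adjusted p = 0.014) and Atp5k, the e subunit of complex V (log2 fold change -0.77 ± 0.21 (SE), adjusted p = 0.025), were called as well. In 36 of the 78 the 2 groups did not overlap, with no-Cys values the lower, against 9.82% of all genes, and in none were they the higher, against 10.2%. Called genes were 0 of 78 without av14, the liver with 18.7 CPM of fat markers, although 22 with it; the count was 3 without av05, 2 when only these groups were fitted, and 4 without av04 and av14 (Atp5k, Atp5mpl, Uqcrb and Uqcrh). The Cse-/- no-Cys livers are shared with the comparison of genotypes, so the 2 sets of calls are not independent.

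BSO, which blocks glutathione synthesis, was given to Cse-/- mice on the no-Trp diet. No subunit transcript was called in either direction against the no-Trp diet alone by edgeR, nor by DESeq2; at an unadjusted p under 0.05, 11 were lower and none higher. Among all genes 0.305% were called lower and 0.488% higher. The values ran from -0.36 for Uqcrb (adjusted p = 0.20) to 0.23 for Atp5s (adjusted p = 0.69). The median was -0.11, and -0.0095 without av04 and av14. Against Cse-/- no-Trp+BSO livers, Cse-/- no-Cys livers had 1 called transcript, Sdhd, with 160.0, 181, 179 and 159.5 CPM against 204, 213, 208 and 220.4 CPM (log2 fold change -0.32 ± 0.082 (SE), adjusted p = 0.043), and the groups did not overlap. Of all genes, 1.42% were called lower and 1.33% higher there. The call was lost, with a count of 0, with upper-quartile factors, with total counts, and when any of the livers compared other than av08 was left out (4 without av08), while the count was 6 with DESeq2, 9 when only these groups were fitted and 14 without av04 and av14.

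The other comparisons gave no called transcript with edgeR. Cse-/- against Cse+/- livers on the no-Trp diet had a median of -0.043 (1.22% of all genes called lower, 1.37% higher; at an unadjusted p under 0.05, none of the 78 was lower and 1 was higher; DESeq2 called none); this median was 0.022 with total counts, 0.031 with the trend of length removed (as described below) and -0.16 without av04 and av14, where 2 transcripts were called lower. Cse+/- livers on the no-Cys diet against the control diet had 69 of 78 values below 0 and a median of -0.17, with 13 lower and none higher at an unadjusted p under 0.05 (1.19% of all genes called lower, 0.989% higher; DESeq2 called none). Here av04 decided the count: without it 7 transcripts were called lower, and without av04 and av14, 19. Cse+/- livers on the no-Trp diet had a median of -0.044 against the control diet, 0.042 with total counts, with 3 lower and none higher at an unadjusted p under 0.05 (0.0407% of all genes called lower, 0.00678% higher; DESeq2 called none). The control group holds 2 livers, and the last 2 comparisons share them. The test of the difference itself, whether the effect of genotype differs between the no-Cys and no-Trp diets, called none of the 78 with edgeR (2.69% of all genes lower, 1.67% higher); DESeq2 called 1 lower and 1 higher, and before adjustment 6 were lower and 1 higher at p under 0.05. The nearest was Cox7a2l, at 0.53 (adjusted p = 0.066), with 117, 106 and 102 CPM in Cse+/- and 114, 84.2 and 90.0 CPM in Cse-/- livers on the no-Trp diet. The median over the 78 was -0.16, and 0.017 without av04 and av14.

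The mean log2 CPM of each complex, with the Cse+/- control livers set to 0, shows where the libraries stand. Complex I measured -0.35 ± 0.048 (SD, n = 4) in Cse-/- no-Cys livers, -0.21 ± 0.18 (n = 4) in Cse+/- no-Cys livers, -0.22 ± 0.016 (n = 4) in Cse-/- no-Trp+BSO livers and -0.12 ± 0.17 (n = 3) in Cse-/- no-Trp livers. Complex III measured -0.40 ± 0.062, -0.20 ± 0.18, -0.21 ± 0.016 and -0.094 ± 0.16 in the same order, complex IV -0.38 ± 0.067, -0.19 ± 0.21, -0.20 ± 0.019 and -0.079 ± 0.24, and complex V -0.27 ± 0.054, -0.13 ± 0.14, -0.15 ± 0.0050 and -0.054 ± 0.11. For complex II the values were -0.24 ± 0.063, -0.061 ± 0.075, -0.088 ± 0.050 and -0.012 ± 0.041. Cse+/- no-Trp livers (n = 3) measured -0.060 ± 0.037, -0.064 ± 0.064, -0.043 ± 0.086, -0.0019 ± 0.091 and -0.060 ± 0.032 in complexes I to V. With TMM scaling, which these values use, the Cse-/- no-Cys group had the lowest mean in all 5 complexes, and its values overlapped those of Cse+/- no-Cys livers in complexes I, IV and V. With total counts, a choice made after seeing the data, its means were -0.12, -0.0097, -0.17, -0.15 and -0.038 in complexes I to V, against -0.15, 0.0043, -0.14, -0.13 and -0.067 in Cse+/- no-Cys livers, so that the latter were the lower in complexes I and V, and the 2 groups overlapped in all 5. Mice av04 and av14 were the highest of their groups and lay above the control mean in all 5 complexes.

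**Figure D3:**
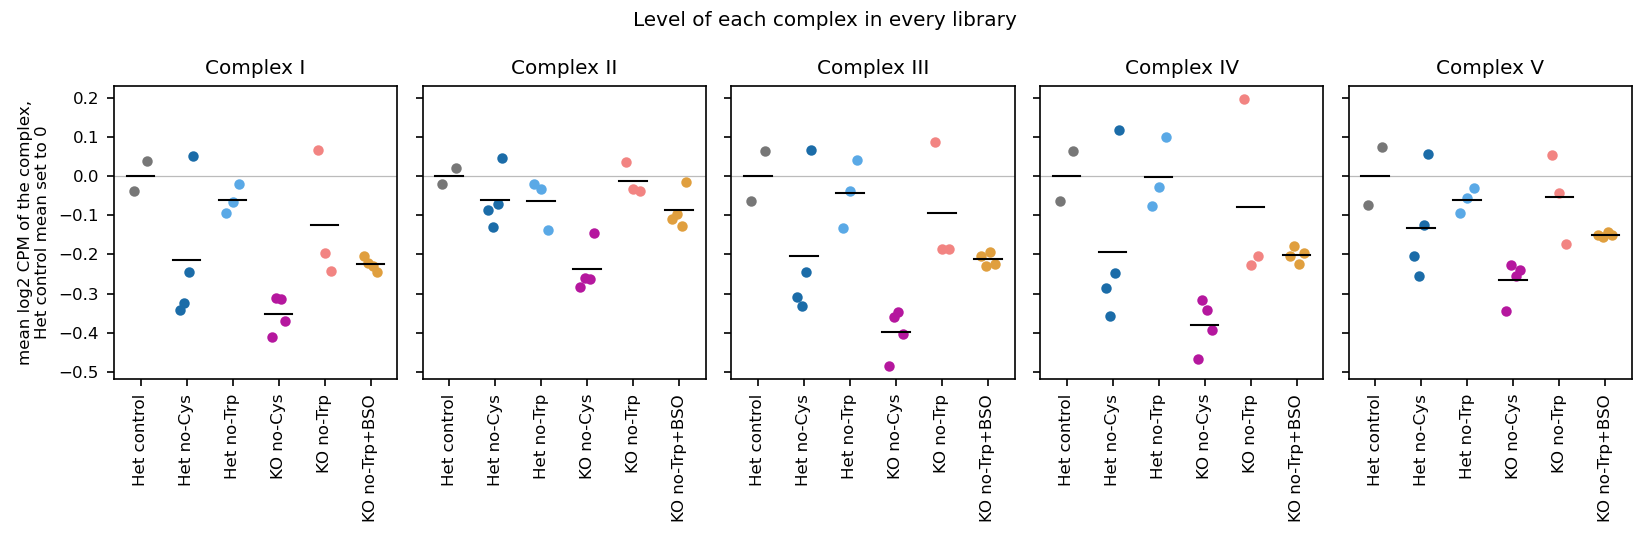
Mean log2 CPM over the subunit genes of each complex (vertical axis, Cse+/- control mean at 0) in every library, by group (horizontal axis), with lines at group means. The 4 Cse-/- no-Cys livers are the group with the lowest mean in each panel under TMM scaling, at -0.35, -0.24, -0.40, -0.38 and -0.27 for complexes I to V (with total counts, Cse+/- no-Cys livers are lower in complexes I and V), and 1 liver in each of the Cse+/- no-Cys (av04) and Cse-/- no-Trp (av14) groups stands above the rest of its group.

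The differences varied with transcript length among the subunit genes, though not in steady order of length or in every comparison. In Cse-/- against Cse+/- no-Cys livers, the median log2 fold change was -0.33 for the 14 subunit genes with a principal transcript of up to 500 bases, -0.22 for the 23 of the next class, up to 700 bases, -0.10 for the 15 up to 1000 bases, -0.17 for the 12 up to 1500 bases and -0.043 for the 14 over 1500 bases. Other genes of at least 30 CPM had medians of 0.051 (69 genes), -0.022 (109 genes), 0.053 (213 genes), -0.025 (490 genes) and 0.030 (3365 genes) in the same classes. Against Cse-/- no-Trp livers, the medians were -0.44, -0.31, -0.32, -0.13 and -0.093 for the subunit genes and -0.025, -0.099, -0.035, -0.021 and 0.013 for the others. Of the 18 transcripts called lower between the genotypes, 12 had at most 700 bases. Across the 78 genes, Spearman's rho of change and length was 0.41 and 0.59 in these comparisons, a description, since genes of the same libraries are not independent. It was 0.19 to 0.57 in 4 of the others, 0.055 for the test of the difference between diets, and -0.36 in Cse+/- livers on the no-Trp against the control diet. When the trend with length over all genes was removed from each library, a step chosen after seeing the data, 28 subunit transcripts were called lower and 2 higher between the genotypes and 32 lower between the diets. The part of transcript length in these results beyond this was not tested.

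**Figure D4:**
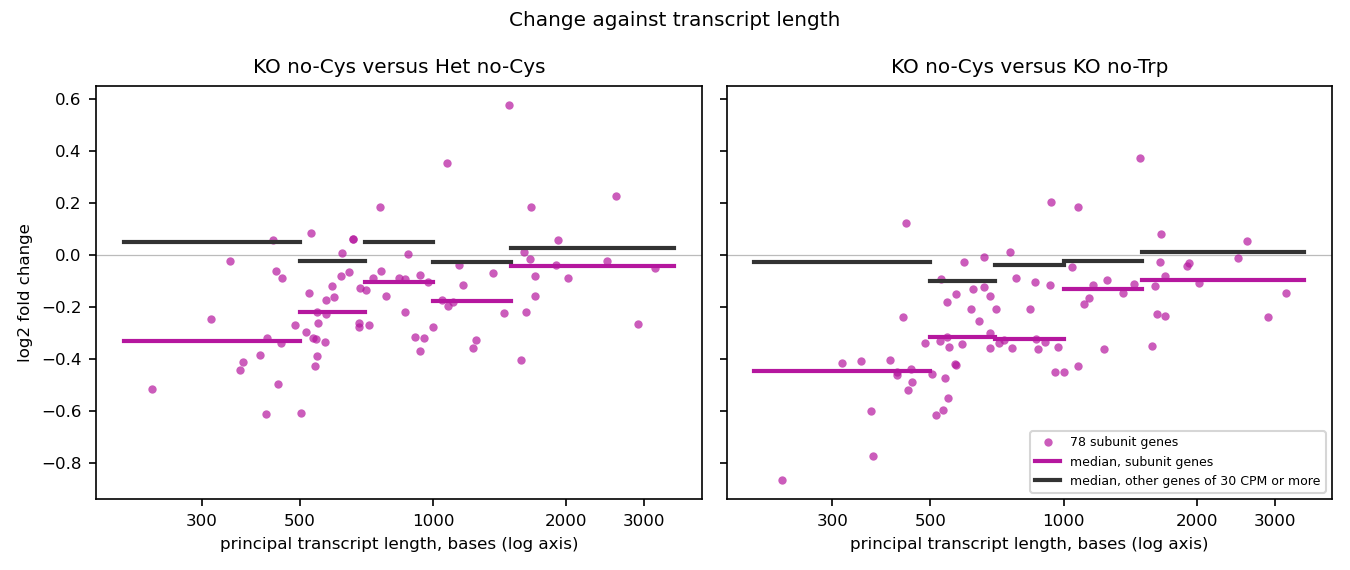
Log2 fold change (vertical axis) of the 78 subunit genes against the length of the principal transcript in bases (horizontal log axis), in 2 comparisons; lines are medians in 5 length classes for the subunit genes and for other genes of at least 30 CPM. The subunit medians are -0.33 and -0.44 in the shortest class and -0.043 and -0.093 in the longest, while those of other genes lie between -0.099 and 0.053; scaling by total counts adds to all values of the first comparison and moves its median over all genes to 0.15.

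Other genes of the pathway were counted in the same way, beside 11.6% of all genes called higher and 12.2% called lower between the genotypes. Of 48 assembly factors tested, 11 were called higher and 1 lower in Cse-/- against Cse+/- no-Cys livers, with a median of 0.13. Those called higher included Lyrm7, which matures the Rieske protein (log2 fold change 1.26 ± 0.19 SE). Atpaf1, needed for the F1 head (0.72 ± 0.14), and Ndufaf3 of complex I (0.52 ± 0.13) were called higher as well. The one called lower was Ndufaf6 (-0.33 ± 0.11). With total counts the median was 0.29, and 19 were called higher and none lower. Between the genotypes on the no-Trp diet the assembly factors had a median of 0.12, with none called. In the test of the difference between diets their median was 0.0033, with 1 called lower (all genes, 2.69%). Of 15 genes of matrix enzymes, carriers, channels, import and prohibitins, 9 were called higher, such as the import receptor gene Tomm20 (0.47 ± 0.078), and 1 lower, the citrate synthase gene Cs (-0.29 ± 0.080). Of 13 regulators, Tfb1m (0.91 ± 0.18) and Lrpprc (0.47 ± 0.11), both acting on mitochondrial RNA, were called higher and none lower, a share near that of all genes. Of the 11 mitochondrially encoded protein genes tested, 9 were called lower and none higher, with a median of -0.70 (-0.54 with total counts, where 7 were called lower), from -0.49 for mt-Nd6 to -1.91 for mt-Co3. The 13 listed genes of this kind summed to 48270 to 55790 CPM in Cse+/- no-Cys and to 30070 to 34420 CPM in Cse-/- no-Cys livers. Of 6 subunit genes that the naming rule missed, Cycs (cytochrome c) was called higher at 0.28 ± 0.095 and Usmg5 of complex V lower at -0.32 ± 0.11. Against Cse-/- no-Trp livers, where 5.07% of all genes were called higher and 5.35% lower, the calls were 1 higher and 4 lower of 48 assembly factors, a share near that of all genes, 2 higher and 1 lower for the list with matrix enzymes, none for regulators and 4 lower for mitochondrially encoded genes. Without av04 and av14 these calls were 1 lower for assembly factors, 1 higher for the list with matrix enzymes and 1 lower for mitochondrially encoded genes, of which DESeq2 called 7 lower on all libraries. With total counts, assembly factors had 6 called higher and none lower. In the test of the difference between diets, 5 of the 11 mitochondrially encoded genes were called lower, and 3 with total counts, with upper-quartile factors or without av04 and av14. With BSO against the no-Trp diet, none of these 4 lists had a called gene by edgeR, and DESeq2 called 2 mitochondrially encoded genes lower.

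Cox6a2 stood apart from the liver forms. It measured 5.13, 7.11, 4.09 and 0.59 CPM in the 4 Cse-/- no-Cys livers (87, 97, 66 and 8 counts) and 0, 0.14, 0.16 and 0 CPM in the 4 Cse+/- no-Cys livers (4 counts in all). The liver of mouse av08 was well below the other 3 of its group. The mean over the group was 4.23 CPM, against 0.074 to 0.92 CPM in the other 5 groups, so the gene entered the 79 only through this group, and its difference from the others is a description with no test. Cse-/- no-Trp livers measured 0.43, 2.12 and 0.21 CPM, where av15 lay above av08, and no-Trp+BSO livers 0.12, 0.33, 0.070 and 0.096 CPM. Cox6a1, the liver form, was present at 328, 359, 354 and 364 CPM in Cse-/- no-Cys livers. Of 8 skeletal muscle markers, 2 (Ckm among them) were at 0 in every library, and their summed level was 0.74 to 1.17 CPM in Cse-/- and 0.63 to 0.99 CPM in Cse+/- no-Cys livers. The summed level of 6 heart markers was 0.50 to 1.39 CPM and 1.44 to 2.04 CPM. The fat markers Ucp1 and Adipoq were at 0 in the 4 Cse-/- no-Cys livers.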

How the data were processed

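Poly(A) RNA of liver, extracted with trizol, was made into libraries with a NEBNext Ultra kit, which does not mark strand, and sequenced paired-end. The deposited counts are raw read counts per gene that the authors made with HISAT2 2.1.0 on GRCm38 and HTSeq 0.11.0, per the submitters' processing notes; their annotation is not named there. Columns of the table carry mouse numbers, which were put in groups through the study's list of mice; 1 further column was not used. Symbols and transcript lengths came from GENCODE M21, and 935 of the 46078 genes had no symbol.

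From the counts, edgeR's quasi-likelihood model was fitted to the 20 libraries with 6 group means (edgeR 4.0.16, limma 3.58.1, R 4.3.3; filterByExpr with a minimum count of 10 and total of 15; 14759 genes; TMM), and two-sided p-values were Benjamini-Hochberg adjusted over these genes (threshold 0.05). The SE was obtained as |log2 fold change|/√F. CPM are TMM-scaled; log2 CPM used a prior count of 2. In counts simulated for the no-Cys groups (13310 genes tested), 4.00% of genes changed 1.25-fold were recovered. For those changed 1.5-fold and 2-fold it was 26.0% and 88.0%. The simulation gave every gene the same spread, held no outlying library and fitted the no-Cys groups alone. These shares therefore do not measure the recovery of the fit to all 20 libraries. Libraries of 1 group differed by more than counting error (chi-square per gene 9.60 to 64.2); depth was 11785740 to 57986121 counts. Each library is 1 mouse; the study drew its groups from shared litters where it could, and litter was not part of the fit.

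Named genes were, per complex, the 3 with the smallest adjusted p and the extremes between genotypes on the no-Cys diet, the extremes with BSO, the highest and lowest level per kilobase, any called against its complex, named isoforms and the Sdh genes; Ndufa3, Ndufa9, Ndufa13, Ndufs6, Uqcrc1, Uqcrfs1, Atp5h and Atp5k were named after their values were seen. Members, lists and named genes were chosen with earlier results of these data known. Alternatives were DESeq2 1.42.0, other scalings and filters, thinning, only the groups compared, a threshold of 0.01 and leaving out libraries. Figures used Python 3.11.15 and matplotlib 3.10.9.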

Additional observations from a re-analysis of the deposited data

Results flagged for a closer look

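Of 111 groups of 4 livers checked (named genes and complex levels), 18 held 1 liver whose gap to the nearest of the others, as a share of the group's range, passed Dixon's 95% critical value. By chance this marks about 1 in 20 independent groups, and these groups are not independent, since they share libraries. Mouse av04 of the Cse+/- no-Cys group stood above the other 3 for 11 genes. These were Atp5g3 (676 CPM), Cox6a1 (470.4 CPM), Cox6c2 (30.3 CPM), Cox7a2 (210.3 CPM), Cox8a (314 CPM), Ndufa4 (449.6 CPM), Ndufb11 (238 CPM), Sdhc (243 CPM), Sdhd (241 CPM), Uqcr10 (205 CPM) and Uqcrh (222 CPM). In the no-Trp+BSO group, mouse av09 was above the others for Atp5g1 (152 CPM), Atp5g2 (87.9 CPM), Cox6a1 (414 CPM) and Cox8a (323 CPM), and mouse av10 was above them for Cox6c (205 CPM, against 198 to 199 CPM). Mouse av08 of the Cse-/- no-Cys group had a complex II level of -0.15, above the other 3, and a Cox7a2l level of 93.8 CPM, below them.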

How the results depend on the processing

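The shift of the median of all genes with total counts is given in the report only for the genotypes on the no-Cys diet. On single genes and on medians of log2 fold changes, 1202 alternatives were the same, 166 lost a gene's call and 29 gained one. Same meant the same side of the threshold for genes, and a shift within the spread for medians. The 7 that moved beyond the spread were medians, and no direction of a called value turned. Of the main results (counts of called members, in all and by complex, and complex levels), 396 alternatives stayed the same and 137 moved.

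Between genotypes on the no-Cys diet, where 18 were called lower and 2 higher, the counts were 2 lower and 5 higher with total counts, 9 lower with no filter, 9 lower and 1 higher with only the groups compared, 8 lower without av04 and av14, 28 lower with the length trend removed, and 4 lower and 0 higher at an adjusted p under 0.01. By complex I to V, these lower counts became 1, 0, 0, 1 and 0 with total counts, and 1, 1, 0, 2 and 0 at 0.01. Complexes I and V had 2 and 1 with no filter, 3 and 1 with only the groups compared, and 2 and 1 without av04 and av14. Complexes I, II and IV had 11, 2 and 4 with the length trend removed, and complex II had 2 with DESeq2, upper-quartile factors, a mean CPM of at least 1, or thinning to the shallowest library. The median was 0.0054 with total counts.

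Between no-Cys and no-Trp Cse-/- livers, where 22 were called lower, the counts were 8 with total counts, 2 with only the groups compared, 4 without av04 and av14, and 2 at 0.01. By complex I, II, IV and V they were 1, 0, 2 and 2 with total counts, 0, 0, 0 and 1 with only the groups compared (complex III 1), 0, 0, 0 and 2 without av04 and av14, and 0 in each at 0.01. Complex I had 13 with DESeq2 and 14 with the length trend removed.

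For no-Cys against no-Trp+BSO, where 1 was called lower, the counts were 6 with DESeq2, 0 with upper-quartile factors, total counts or 0.01, 5 with no filter, 9 with only the groups compared, 14 without av04 and av14, and 11 with the length trend removed. Without av04 and av14, 2 were called lower between genotypes on the no-Trp diet (median -0.16) and 19 between the no-Cys and control diets, and the median with BSO was -0.0095. The interaction gave 1 lower and 1 higher with DESeq2, 1 higher with total counts, 1 higher without av04 and av14 (median 0.017), and 3 lower and 1 higher with the length trend removed.

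Leaving out 1 mouse of the groups compared at a time, calls between genotypes on the no-Cys diet ranged from 4 (without av04 or av05) to 21 lower and from 0 (without av06) to 2 higher. By complex these were 1 to 7, 1 to 2, 0 to 4, 2 to 3 and 0 to 8 lower. Against no-Trp they ranged from 0 (without av14) to 26, and by complex from 0 to 9, 0 to 2, 0 to 4, 0 to 5 and 0 to 7. Mice of other groups enter through the shared spread: without av14, the first comparison had 24 calls in either direction, and without av04, the second had 30. Against no-Trp+BSO they ranged from 0 to 4 (without av08), between the no-Cys and control diets from 0 to 7 (without av04), and for the interaction from 0 to 2 lower (without av08) and 0 to 1 higher (without av08 or av14). The other counts were 0 throughout. Where an arm held 1 mouse, that mouse was taken to vary like the other groups. The causes were not tested. With total counts, tried after seeing the data, the mean levels against the control were -0.12, -0.0097, -0.17, -0.15 and -0.038 for complexes I to V in Cse-/- no-Cys livers and -0.074, 0.063, -0.062, -0.050 and 0.00046 with no-Trp+BSO; in complexes I, II and V they were 0.024, 0.020 and 0.024 in Cse+/- no-Trp livers, and in complexes II and V 0.14 and 0.096 in Cse-/- no-Trp livers. No paired analysis was possible because the columns of the table carry mouse numbers and no replicate numbers. The smallest changes were rarely recovered in simulated counts.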
